A study of Mus musculus with 38 samples.

Results

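Oxidative phosphorylation subunit genes were described in the striatum of adult mice. These are nuclear genes whose symbols begin with Nduf, Uqcr, Cox4i, Cox5, Cox6, Cox7, Cox8 or Atp5, or name one of the Sdh subunits. A gene was kept where a probe had a detection p-value under 0.01 on at least 8 arrays, and the brightest probe stood for the gene. This gave 78 genes of 8444 named genes and 9455 features tested. None of the 94 matching probes was lost to the detection filter, so all genes the symbols matched were kept.

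The study measured total RNA from the striatum of MF1 mice aged 152 days on Illumina bead arrays. The labels place 38 animals in 4 groups, namely 9 XX females, 8 XX males, 12 XY males and 9 XXY males. The sample codes of all males carry Sry, the testis-determining gene, and those of the females do not, so XX males and XX females share their sex chromosomes but differ in gonadal type. XXY males have the sex chromosomes of Klinefelter syndrome, the human condition named in the series title. A signal was analysed for 37 animals, and of XY male 3 only the detection p-values were used.

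The final character of an animal's code was an a or a b, and 9 animals with a signal had both. All XX males carried letter a, and all XX females carried letter b. Letter a arrays were dimmer, with a 90th percentile of raw signal between 632 and 937, against 1266 to 2209 on letter b arrays. Between 10089 and 12392 probes were detected per array. The striatal projection neuron genes Drd1, Drd2 and Ppp1r1b were detected on all 38 arrays, as the tissue label requires. The meaning of the letters is not stated in the labels, so letter and group cannot be told apart between XX males and XX females except through the other groups.

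The respiratory chain sits in the inner mitochondrial membrane. Complex I takes electrons from NADH and complex II takes them from succinate. Both pass them through ubiquinone to complex III, and cytochrome c carries them on to complex IV, which reduces oxygen. Complexes I, III and IV pump protons, and complex V, the ATP synthase, uses the proton gradient to make ATP. Neurons of the striatum depend heavily on this pathway, and inhibitors of complex II are known to damage the striatum.

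By role, 31 of the 78 genes encode subunits of complex I, with 6 in its NADH-binding N module, 8 in its ubiquinone-binding Q module and 17 in its membrane arm. Complex II was represented by 3 genes, complex III by 6, complex IV by 16 and complex V by 15. Another 7 genes match by name without being subunits of a complex. They are the complex I assembly factors Ndufaf1, Ndufaf3, Ndufaf4, Ndufaf5 and Ndufaf7, the supercomplex factor Cox7a2l and the pseudogene Ndufs5-ps. The mitochondrially encoded subunits lie outside the symbol rule.

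Promoter windows were compared because many of these genes are known targets of shared factors. Windows of 300 bases, 250 before and 50 after the annotated start, were taken from RefSeq on GRCm38.p6 and held 66 of the 78 genes. Both strands were searched for 4 motifs. The NRF1 motif GCGCANGCG was present for 18 of the 66 genes (27.3%), against 7.03% of all 27025 genes in the table. The motif CCGGAAG of GABPA, also called NRF2, was present for 16 (24.2%, against 9.93%). The YY1 motif AANATGGCG was present for 10 of 66, against 2.76% of all genes. The ESRRA motif TCAAGGTCA was present for 2 of 66, against 126 of all genes. At least one motif was found for 37 genes and more than 1 kind for 8 genes. A match is a stretch of letters and not a measured binding site. The 27025 genes were not limited to genes detected here, and shares among the 8444 named genes tested are not given.

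The 4 windows below are shown because the results turn on these genes: Cox7b had the pattern closest to that of the other genes, Atp5b the most opposite pattern, Sdhd the largest fitted difference in complex II, and Cox8b the widest spread between animals. Capitals mark the motif letters on either strand. Atp5b holds YY1 letters, Sdhd holds NRF1, GABPA and ESRRA letters in this order, and the other windows hold none of the 4 motifs.
Cox7b, chrX:106015450-106015749, plus strand: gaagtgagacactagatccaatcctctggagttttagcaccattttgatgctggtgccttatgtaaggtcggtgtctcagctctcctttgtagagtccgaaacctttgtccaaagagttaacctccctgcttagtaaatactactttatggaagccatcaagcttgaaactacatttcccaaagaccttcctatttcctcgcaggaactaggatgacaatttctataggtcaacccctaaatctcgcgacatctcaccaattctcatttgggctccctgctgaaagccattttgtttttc
Atp5b, chr10:128083057-128083356, plus strand: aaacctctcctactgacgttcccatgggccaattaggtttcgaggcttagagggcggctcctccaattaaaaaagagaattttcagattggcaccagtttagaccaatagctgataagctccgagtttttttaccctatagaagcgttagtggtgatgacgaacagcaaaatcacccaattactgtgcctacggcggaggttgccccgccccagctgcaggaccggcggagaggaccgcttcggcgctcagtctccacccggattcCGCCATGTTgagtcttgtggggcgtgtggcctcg
Sdhd, chr9:50603800-50604099, minus strand: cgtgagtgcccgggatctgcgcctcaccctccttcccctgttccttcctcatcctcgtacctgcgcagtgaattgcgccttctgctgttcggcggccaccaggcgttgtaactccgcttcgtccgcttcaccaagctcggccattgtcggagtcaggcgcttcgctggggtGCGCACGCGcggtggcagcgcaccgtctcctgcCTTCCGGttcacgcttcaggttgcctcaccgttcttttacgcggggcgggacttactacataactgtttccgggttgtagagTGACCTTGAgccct
Cox8b, chr7:140900397-140900696, minus strand: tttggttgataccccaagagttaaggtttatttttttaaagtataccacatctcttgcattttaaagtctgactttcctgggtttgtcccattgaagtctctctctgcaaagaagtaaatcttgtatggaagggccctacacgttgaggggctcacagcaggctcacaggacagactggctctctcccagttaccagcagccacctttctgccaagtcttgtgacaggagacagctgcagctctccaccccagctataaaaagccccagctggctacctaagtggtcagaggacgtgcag

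The genes were mostly bright. On the normalized log2 scale, 69 of the 78 had a mean over animals above the median of all features, and 44 lay above the 95th percentile. Probe brightness depends on the probe as well as on the transcript, so levels of different genes were not ranked against each other. On all 38 arrays 74 genes were detected, with exceptions at Cox4i2 (11 arrays), Cox6b2 (34), Ndufb11 (34) and Ndufaf3 (37). Cox4i2 is a lung-enriched isoform of complex IV subunit 4, and Cox6b2 is a testis-enriched isoform of subunit 6B.

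At the median the genes varied less between animals than all features did, in a comparison not matched for brightness. After group, labelled batch and code letter were removed, the residual SD had a median of 0.19 over the 78 genes, against 0.32 over all features. Bright genes varied least. The 14 genes with a mean over 14 had a median SD of 0.12, and the 8 genes with a mean under 8 had a median SD of 0.57. Across the 78 genes the mean level and the SD had r = -0.74 (Spearman -0.79), where genes are not independent replicates. The highest value on any array was 15.13. Whether a limit of the scale narrowed the spread of bright genes was not tested.

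Complex IV shows both ends of this range. Cox5b, a zinc-binding subunit on the matrix side, had a residual SD of 0.07. Cox8b, the heart and skeletal muscle isoform of subunit 8, had an SD of 1.32, the widest of the 78 genes. Cox7a1, the muscle isoform of subunit 7a, had an SD of 1.00, and Cox6a2, the muscle isoform of subunit 6a, one of 0.74. The ubiquitous partners Cox8a and Cox6a1 had SDs of 0.09 and 0.10.

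**Figure D1:**
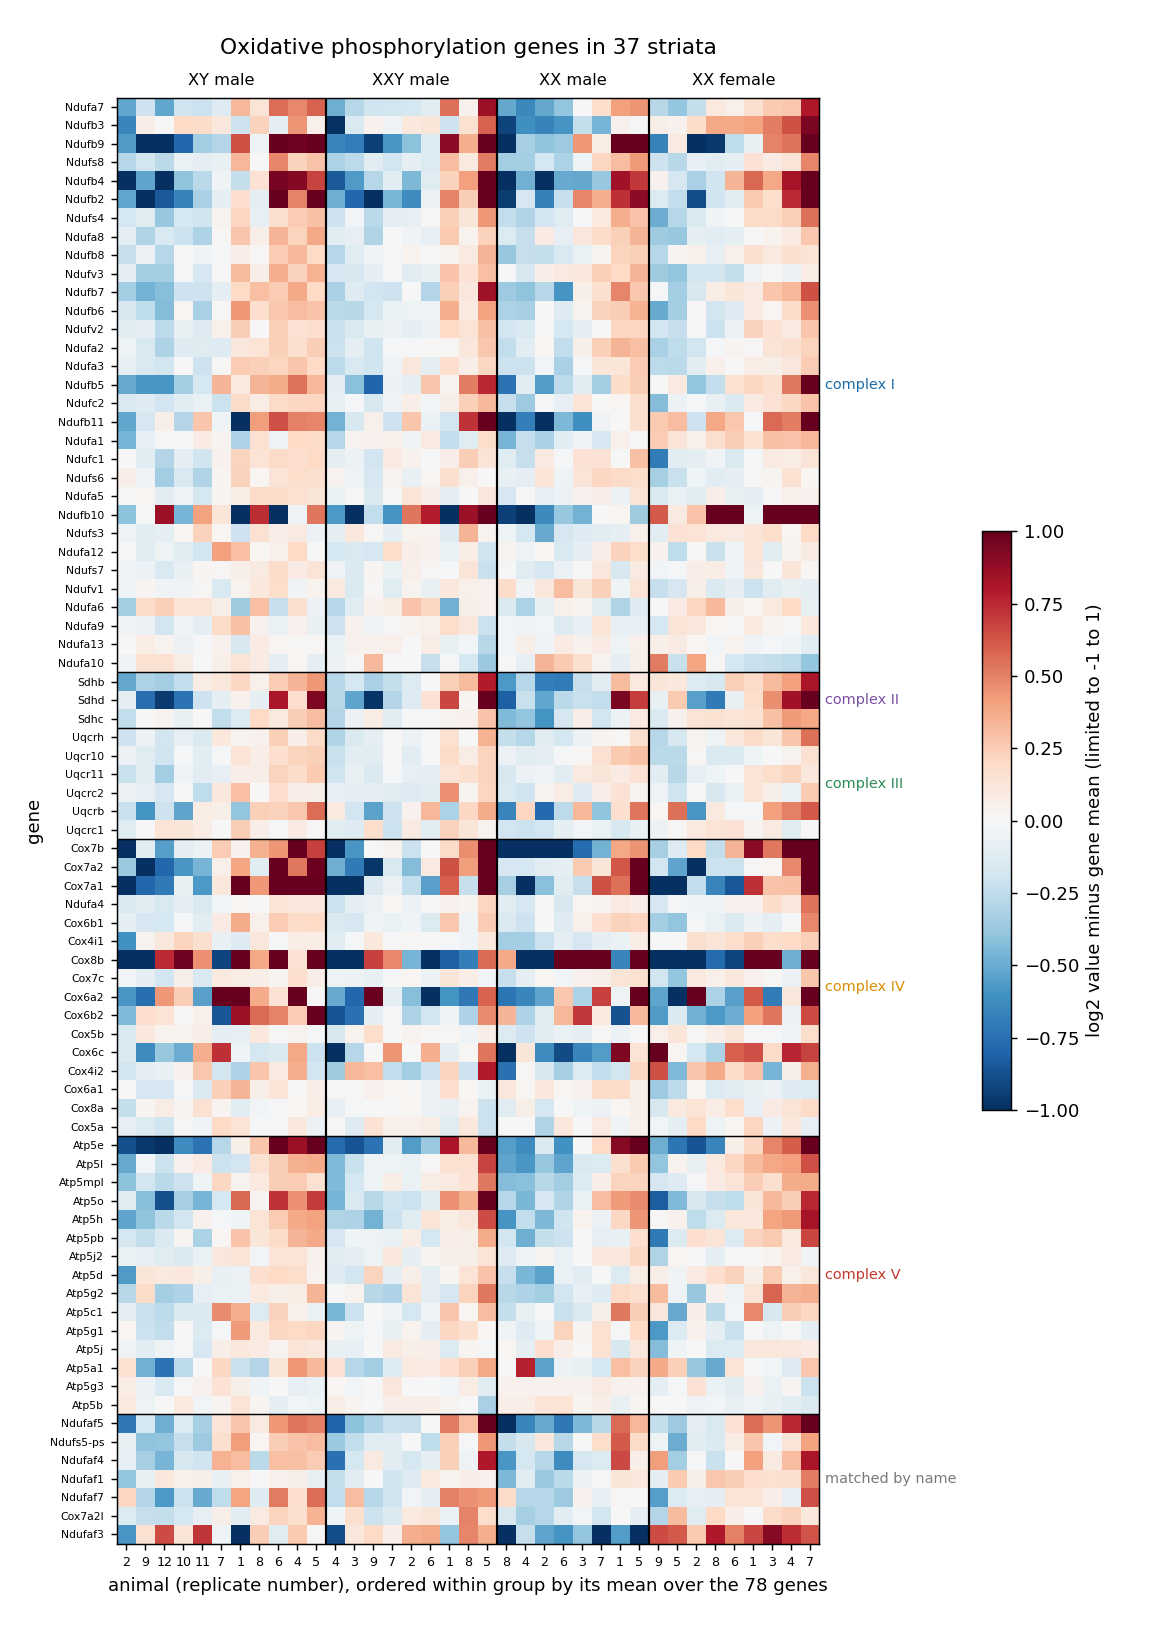
Normalized log2 value minus the gene's mean over 37 animals, with 1 row per gene grouped by complex and 1 column per animal grouped by genotype. Colours are limited to the range from -1 to 1. Whole columns turn red or blue across all complexes, as in XXY male 5 and XX female 7, while neighbouring animals of the same group differ.

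Genes of all 5 complexes rose and fell together from animal to animal. Over all pairs of the 78 genes the median Pearson correlation of the residuals was 0.45, and 44.7% of pairs exceeded 0.5, against 13.9% of pairs of all features. Negative correlations made up 13.4% of the pairs. With median centring in place of quantile normalization the median was 0.77, and 80.1% of pairs exceeded 0.5. These correlations describe 37 animals that share arrays and normalization, and they carry no p-value. The 71 subunit genes alone had a median of 0.45. Within the groups taken singly the median was 0.49 in XY males (n = 11), 0.43 in XXY males (n = 9), 0.56 in XX males (n = 8) and 0.45 in XX females (n = 9). In the first labelled batch it was 0.49 (n = 20), and 0.45 in the second (n = 17).

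The co-variation did not follow the borders of the complexes. The median correlation was 0.47 within complex I, 0.37 within complex III, 0.38 within complex IV and 0.38 within complex V. Between complexes I and V it was 0.47, and between complexes I and III it was 0.47. The 3 complex II genes correlated with one another at a median of 0.67 and with complex I at 0.68.

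Each gene was next set against the mean of the other 77. In complex I, 17 of 31 genes had r over 0.8, as did 3 of 3 in complex II, 3 of 6 in complex III, 5 of 16 in complex IV, 5 of 15 in complex V and 2 of the 7 matched by name. This made 35 of 78 (44.9%), against 929 of 8366 named genes outside the list (11.1%), each set against the mean of all 78. The highest values belonged to Cox7b, a small X-linked subunit of complex IV (r = 0.97, Spearman 0.97), to the assembly factor Ndufaf5 (0.95, Spearman 0.95) and to Ndufa7, an accessory subunit of complex I (0.95, Spearman 0.93).

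Only 4 of the 78 genes had a negative correlation with the others. Atp5b, the catalytic beta subunit of ATP synthase, had r = -0.69 (Spearman -0.64). Ndufa10, a membrane-arm subunit of complex I, had -0.49, Ndufa13 of the same arm had -0.39, and Atp5g3, which encodes the c subunit of the ATP synthase ring, had -0.31. Of these 4 genes, 3 had a mean level over 14, and Ndufa10 had 12.34.

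**Figure D2:**
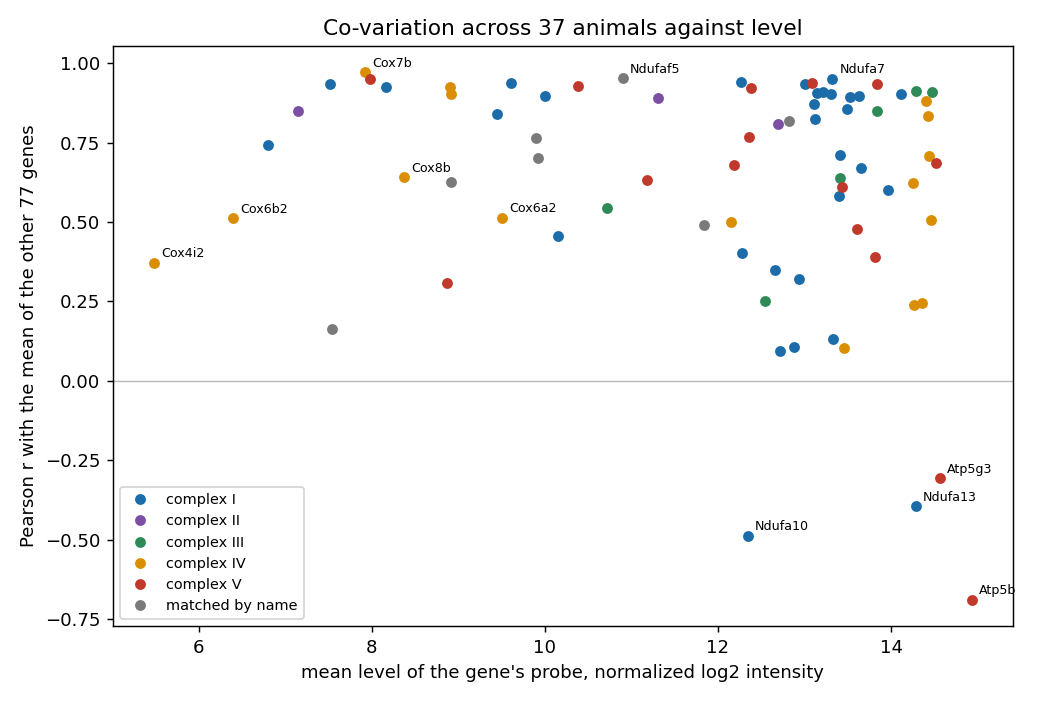
Pearson correlation of each gene's residuals with the mean of the other 77 genes (vertical axis) against the mean normalized log2 intensity of its probe (horizontal axis), over 37 animals, coloured by complex. Correlations above 0.8 occur among dim and bright probes, from Sdhd at 7.15 to Uqcr10 at 14.47, and 3 of the 4 negative values belong to probes brighter than 14.

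Catalytic and core subunits had both low and high correlations. In complex I, Ndufv1, which binds FMN and NADH, had r = 0.13 with the mean of the others, and Ndufs7, which carries the last iron-sulfur cluster before ubiquinone, had 0.32. Ndufv2 and Ndufs8, also iron-sulfur proteins, had 0.89 and 0.94. In complex III the core proteins Uqcrc1 and Uqcrc2 had 0.25 and 0.64, and the small subunits Uqcrh, Uqcr10, Uqcr11 and Uqcrb had 0.91, 0.91, 0.85 and 0.54. In complex V the alpha subunit gene Atp5a1 had 0.31, and the c subunit gene Atp5g3 had -0.31. Among the other small subunit genes, Atp5j had 0.39, Atp5d 0.68 and Atp5j2 0.69. Atp5l and Atp5mpl had 0.94 and Atp5e 0.95. In complex IV, Cox5a had 0.10, Cox4i1 0.71 and Cox7a2, the broadly expressed isoform of subunit 7a, 0.93.

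The pattern extended beyond oxidative phosphorylation. Component 1 of the residuals of all 9455 features held 45.3% of their variance, and the mean of the 78 genes had an absolute correlation of 0.96 with it. The named genes outside the list closest to the mean of the 78 were Gpx4, a lipid peroxide reductase (r = 0.97), Copg1, a coatomer subunit (0.97), the Mediator subunit Med31 (0.97), Pts of tetrahydrobiopterin synthesis (0.97) and Echs1 of fatty acid oxidation (0.97). The most opposite were Ankrd12 (-0.97), Tmed10 (-0.96) and Fbxo21 (-0.96). Among the 8366 named genes 984 had r under -0.8 (11.8%), and no member of the 78 did.

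Other mitochondrial genes divided along the same axis. Of 24 assembly factors measured outside the rule, 21 had a positive correlation with the mean of the 78 and 9 exceeded 0.8, among them Cox14 (0.95) and Sdhaf4 (0.95). Cox10, which makes the haem A precursor, had -0.90. Of 15 citric acid cycle genes 8 were positive and none exceeded 0.8. Fh1, fumarase, had 0.77, while Cs, citrate synthase, had -0.70 and Ogdh, of the 2-oxoglutarate dehydrogenase complex, had -0.84. Of 11 regulators of mitochondrial biogenesis 6 were positive, with Tfb1m at 0.84 and the coactivator gene Ppargc1b at -0.88.

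Many cell type markers moved with the axis too, but to different degrees. All 7 striatal projection neuron markers had negative correlations with the mean of the 78, at a median of -0.78. They ran from Tac1 at -0.07 and Drd1 at -0.20 to Ppp1r1b, which encodes DARPP-32, at -0.88 and Bcl11b at -0.94. Of 4 general neuron markers 3 were negative, led by Rbfox3 (-0.92), and Stmn2 had 0.21. Of 8 astrocyte markers 6 were negative, with Slc1a3 at -0.93 and S100b at 0.85. The summed level of the projection neuron markers, on the linear scale, ranged from 29077 to 59749 in XY males, 26930 to 58596 in XXY males, 34826 to 59557 in XX males and 23170 to 57591 in XX females. The part of cell composition in the co-variation was not tested, and in bulk tissue fewer cells of a type and less RNA per cell cannot be told apart.

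The relation of array measures to the mean of the 78 genes was tested as well. The mean of the 78 genes correlated with the number of detected probes at r = -0.36 over 37 animals (Spearman -0.37), and at -0.40 without the 2 animals farthest from the median number. The permutation p was 0.029 for r and 0.0251 for the rank correlation, with an adjusted p of 0.116 each over 16 tests of 8 relations. On letter a arrays r was -0.70 (n = 14, Spearman -0.60, -0.60 without the 2 farthest, permutation p = 0.00674, adjusted p = 0.108). On letter b arrays it was -0.28 (n = 14, Spearman -0.04, permutation p = 0.344, adjusted p = 0.611). On arrays with both letters it was -0.73 (n = 9, Spearman -0.68, exact permutation p = 0.0434, adjusted p = 0.134) and -0.28 without the 2 farthest. The other measure was the 90th percentile of raw signal. Its r was 0.07 over 37 animals, 0.02 on letter a arrays, 0.43 on letter b arrays and -0.52 on arrays with both letters. The lowest adjusted permutation p for this measure was 0.273. None of the relations passed the adjustment.

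The animals at the upper end were XX female 7, at 0.53 above the gene means on average, and XXY male 5, at 0.48. XXY male 5 had the fewest detected probes, 10089, while XX female 7 had 11244. Cox7b reached 10.21 in XX female 7 and 10.14 in XXY male 5, and no other animal exceeded 9.08. Without these animals the median pairwise correlation of the 78 genes was 0.43.

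**Figure D3:**
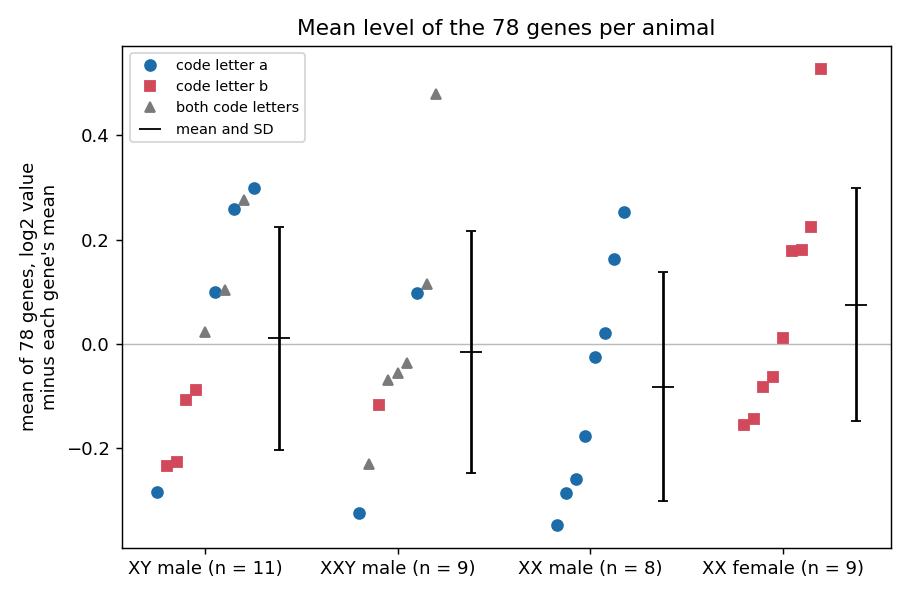
Mean over the 78 genes of the log2 value minus each gene's mean, with 1 point per animal, by group and code letter, and the group mean with its SD. All 4 groups overlap, from -0.35 to 0.25 in XX males and from -0.16 to 0.53 in XX females.

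The group comparisons asked whether sex chromosomes or gonadal type change the level of these genes, and none of the 78 passed the test in any of 6 comparisons. The mean of the 78 genes ranged from -0.28 to 0.30 in XY males (median 0.02), from -0.32 to 0.48 in XXY males (median -0.06), from -0.35 to 0.25 in XX males (median -0.10) and from -0.16 to 0.53 in XX females (median 0.01). The groups overlapped over most of their ranges. The fitted difference of this mean was -0.04 ± 0.10 (SE) for XXY minus XY males, 0.11 ± 0.13 for XX females minus XY males and -0.16 ± 0.13 for XX minus XY males. It was -0.15 ± 0.14 for XXY males minus XX females, 0.12 ± 0.13 for XXY minus XX males and -0.27 ± 0.19 for XX males minus XX females. Each estimate lay within 1.5 standard errors of 0.

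Counts of genes called, by limma with a Benjamini-Hochberg adjusted p under 0.05 over all 9455 features, were 0 of 78 in every comparison. The background was low throughout, with percentages called over all features of 0.0635 for XXY against XY males, 0.0529 for XX females against XY males and 0.0529 for XX against XY males. They were 0.0423 for XXY males against XX females, 0.0212 for XXY against XX males and 0.0106 for XX males against XX females. The lowest adjusted p of any of the 78 was 1.00 for XXY against XY males, 0.890 for XX females against XY males, 0.636 for XX against XY males, 0.924 for XXY males against XX females, 0.689 for XXY against XX males and 0.561 for XX males against XX females. All comparisons come from 1 model and share groups with one another, so their values are given side by side.

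For XXY against XY males the median difference over the 78 genes was -0.02, and 26 were higher in XXY males, against 49.5% of all features. At an unadjusted p under 0.05 there was 1 of the 78, against 1.30% of all features. In labelled batch 1 alone 5 of 78 were higher with a median of -0.14, and in labelled batch 2 alone 36 with a median of -0.0036. On letter a arrays alone 8 were higher (median -0.14, 2 XXY and 4 XY males). On arrays with both letters alone 9 were higher (median -0.09, 6 XXY and 3 XY males). Without XXY male 5 there were 13 higher (median -0.05), as there were with the replicate block (-0.06) and with array weights (-0.07). The median was negative under all 17 alternatives and the count of calls stayed 0. In the model with all animals the membrane arm of complex I had a median difference of -0.02 (6 of 17 genes higher), complex III -0.02 (1 of 6), complex IV -0.02 (6 of 16) and complex V -0.01 (6 of 15).

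XX males were fitted lower for most of the genes in all 3 of their comparisons, although not under every alternative. Against XY males 9 of 78 genes were higher, against 50.8% of all features, with a median of -0.13. Against XX females 12 of 78 were higher, against 51.6%, with a median of -0.20. In XXY males 67 of 78 were higher than in XX males, against 49.5%, with a median of 0.10. Genes that vary together repeat each other in such counts. At an unadjusted p under 0.05 there were 2, 5 and 3 of the 78 in these comparisons, against 6.5%, 7.62% and 6.24% of all features. Within labelled batch 1 alone the median was -0.10 for XX minus XY males, 0.15 for XX males minus XX females and -0.06 for XXY minus XX males, so the last 2 turned their direction. Within labelled batch 2 alone these medians were -0.31, -0.46 and 0.28. In labelled batch 1 only XX females carried letter b, and in labelled batch 2 only XX males carried letter a. The letter term within a batch thus rested on arrays with both letters. These were 1 XY and 3 XXY males in labelled batch 1, and 2 XY and 3 XXY males in labelled batch 2. On letter a arrays alone, where letters do not differ, 26 of 78 were higher in XXY than in XX males (median -0.04). That subset held 2 XXY and 8 XX males. With the replicate block 29 were higher in XXY males (median -0.02), in place of 67.

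The model also mattered for XX males. With array weights 25 of 78 genes were called for XX against XY males, all lower in XX males, which is 32.1% against 26.2% of all features. For XX males against XX females 19 were called, 24.4% against 20.8%. Without the letter term 16 were called in the latter comparison, 20.5% against 26.9%.

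XX females were fitted higher than XY males for 55 of 78 genes, against 48.4% of all features, with a median of 0.07, and higher than XXY males for 59 genes, with a median of -0.11 for XXY males minus XX females. In the last comparison 19 of 78 were higher in XXY males, against 52.4% of all features. None of the 78 had an unadjusted p under 0.05 in either comparison, where 5.27% and 4.09% of all features did. Within labelled batch 1 alone, where only XX females carried letter b, these medians were -0.29 and 0.14. Within labelled batch 2 alone they were 0.15 and -0.17. Without XX female 7 they were 0.02 and -0.04.

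**Figure D4:**
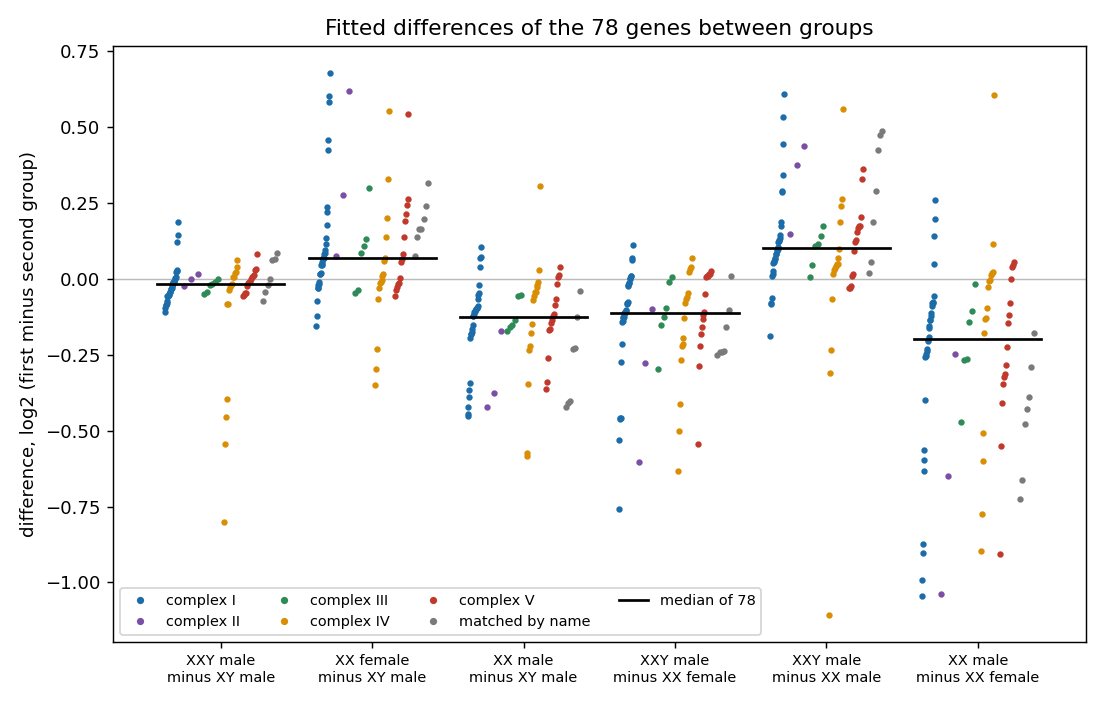
Fitted log2 differences of the 78 genes in 6 comparisons, coloured by complex, with the median of the 78 as a black line. Medians run from -0.20 for XX males minus XX females to 0.10 for XXY minus XX males. None of the points passed the adjusted threshold.

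Complex II had the largest medians of the complexes in every comparison except XXY against XY males, from -0.65 for XX males minus XX females to 0.37 for XXY minus XX males. Succinate dehydrogenase oxidises succinate to fumarate and belongs to the citric acid cycle as well. Sdhb, its iron-sulfur subunit, had log2 values with lowest, median and highest of 10.80, 11.39 and 11.74 in XY males. They were 10.99, 11.18 and 12.11 in XXY males, 10.61, 11.06 and 11.63 in XX males, and 11.15, 11.50 and 12.13 in XX females. The highest XX female exceeded all XX males, and the ranges overlapped. The fitted difference of Sdhb between XX males and XX females was -0.65 ± 0.28 (SE; unadjusted p = 0.0271; adjusted p = 0.561). A second Sdhb probe gave -0.68, although second probes of other genes, such as Ndufs4, differed more from the first.

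Sdhd, a membrane anchor of complex II and the gene with 3 motif kinds in its promoter window, had values of 6.19, 7.06 and 8.08 in XY males. They were 6.17, 7.02 and 8.51 in XXY males, 6.34, 6.91 and 8.09 in XX males, and 6.45, 7.32 and 8.44 in XX females. The groups overlapped almost fully. The fitted difference between XX males and XX females was -1.04 ± 0.46 (unadjusted p = 0.0288, adjusted p = 0.561). Sdhc, the other anchor, had medians of 12.69, 12.68, 12.52 and 12.84 in the same order of groups.

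The other genes with an unadjusted p under 0.05 are given here because of that p. Ndufb5 of the membrane arm had lowest, median and highest values of 8.71, 9.26 and 9.70 in XX males and 9.06, 9.60 and 10.71 in XX females, with a fitted difference of -0.90 ± 0.35 (adjusted p = 0.561). Ndufaf7, an arginine methyltransferase that helps assemble complex I, differed by -0.72 ± 0.23 between XX males and XX females and by 0.47 ± 0.16 between XXY and XX males (adjusted p = 0.561 and 0.689), and by -0.41 ± 0.15 between XX and XY males (adjusted p = 0.636). Its medians were 8.79 in XY males, 8.89 in XXY males, 8.87 in XX males and 8.84 in XX females. Those medians lie closer together than the fitted differences, which are adjusted for batch and code letter. Cox7a2l differed by -0.39 ± 0.17, 0.29 ± 0.11 and -0.23 ± 0.11 in the same 3 comparisons, and Ndufaf3 by 0.49 ± 0.21 between XXY and XX males (adjusted p = 0.689). Cox6b2 differed by -0.45 ± 0.22 between XXY and XY males (adjusted p = 1.00).

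The code letter had a larger footprint than the groups. Letter b against letter a gave 4 of 78 genes called, against 13.2% of all features, and 7 without XXY male 5 (21.7%). There were 2 with the replicate block (2.36%). The count was 0 in labelled batch 1 alone (0.159% of all features) and 0 in labelled batch 2 alone (0%). It was also 0 in the authors' deposited table of log2 values (0%), used without XX males. Ndufaf3 was higher by 1.03 ± 0.27 (adjusted p = 0.00949), and Ndufa6, a Q module subunit, by 0.42 ± 0.12 (adjusted p = 0.0193). Cox7a2 fell by 1.15 ± 0.39 (adjusted p = 0.0436) and Ndufaf7 fell by 0.62 ± 0.20 (adjusted p = 0.0310). Ndufaf3 shows how letter and group meet. Its values ran from 5.79 to 7.30 in XX males, all letter a, and from 7.80 to 8.44 in XX females, all letter b. These ranges did not touch, and the fitted difference between the groups had an unadjusted p above 0.05 once the letter was in the model.

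The labelled batches differed little. Batch 2 was fitted lower than batch 1 for 62 of the 78 genes and higher for 16, against 50.7% of all features higher, with a median of -0.06. None of the 78 was called or had an unadjusted p under 0.05, where 0 and 1.65% of all features did.

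The X chromosome carries 3 of the 78 genes, and XXY males and XX animals have more than 1 X. Ndufa1, an accessory subunit of complex I whose human counterpart is mutated in mitochondrial disease, had lowest, median and highest values of 12.95, 13.41 and 13.61 in XY males. They were 13.13, 13.45 and 13.59 in XXY males, 12.95, 13.27 and 13.46 in XX males, and 13.46, 13.66 and 13.74 in XX females. XX females, all letter b, lay at the top, and 8 of 9 exceeded every XX male, all letter a. The XXY minus XY difference was 0.00 (95% interval -0.16 to 0.16), and XX females minus XY males gave 0.11 (-0.10 to 0.32).

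Ndufb11, of the membrane arm, had medians of 6.86 in XY males, 6.74 in XXY males, 6.27 in XX males and 7.11 in XX females. Its XXY minus XY difference was 0.19 (-0.34 to 0.71). Cox7b had medians of 7.97, 7.93, 7.03 and 8.26 in the same order. Its XXY minus XY difference was -0.02 (-0.75 to 0.72). For all 3 genes the ranges of XXY and XY males overlapped, and adjusted p was 1.00. The intervals for Ndufb11 and Cox7b are too wide to set a small difference apart from none.

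The muscle isoform genes Cox8b and Cox6a2 had the lowest fitted differences of the 78 between XXY and XY males. Cox8b had lowest, median and highest values of 6.41, 8.83 and 9.96 in XY males, 6.28, 7.69 and 9.06 in XXY males, 6.94, 9.11 and 10.36 in XX males, and 6.93, 7.60 and 10.72 in XX females. All groups spanned a wide range and overlapped. The XXY minus XY difference was -0.80 ± 0.56 (adjusted p = 1.00). Among XX females 6 animals lay between 6.93 and 7.88 and 3 lay between 10.05 and 10.72. Cox6a2 had values of 8.75, 9.75 and 10.74 in XY males and 8.48, 9.00 and 10.49 in XXY males, with a difference of -0.55 ± 0.32 (adjusted p = 1.00).

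**Figure D5:**
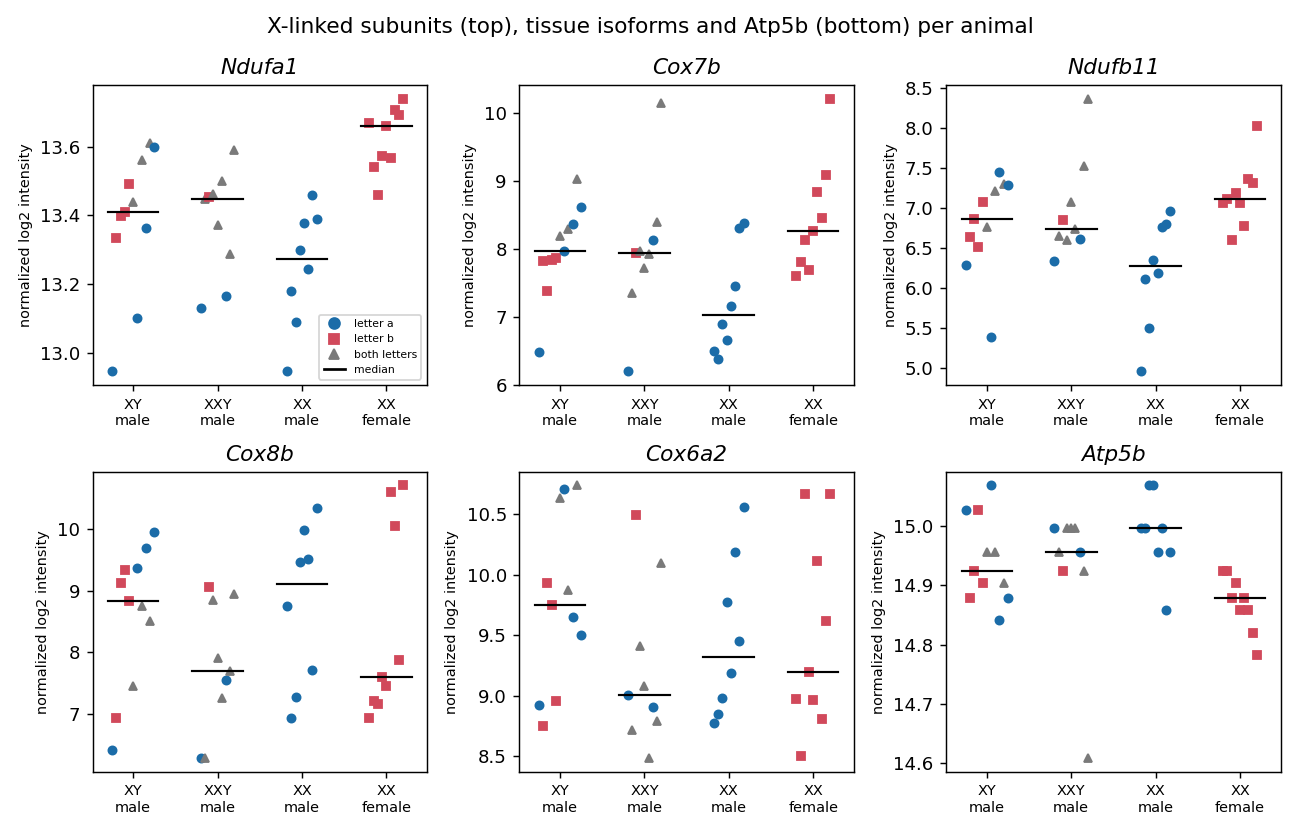
Normalized log2 intensity per animal by group, with medians as lines and code letters as symbols, for the X-linked Ndufa1, Cox7b and Ndufb11 and for Cox8b, Cox6a2 and Atp5b. Vertical scales differ between panels. Cox8b spans 6.28 to 10.72 over all animals, Atp5b 14.61 to 15.07.

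Cox8b and Cox6a2 followed markers of tissue next to the striatum, a comparison chosen after their values were seen. Across 37 animals the residuals of Cox8b correlated with 4 of 5 choroid plexus markers at 0.63 or more. They were Kcne2, a potassium channel subunit (0.86), Otx2 (0.82), Ttr, transthyretin (0.76), and Kl, klotho (0.63), while Clic6 had 0.13. Within groups Kcne2 and Cox8b had r of 0.94 in XY males (n = 11), 0.73 in XXY males (n = 9), 0.79 in XX males (n = 8) and 0.95 in XX females (n = 9). Kcne2 ranged from 4.67 to 10.13. In XX females 1, 3 and 7, the 3 animals high in Cox8b, Kcne2 was 9.82, 9.52 and 9.37, and in the other XX females it was at most 6.84. XXY male 5 had Cox8b at 8.94 with Kcne2 at 6.28. The values fall into low and high animals, so these correlations describe mainly that split.

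The named genes with the pattern closest to Cox8b were Hemk1 (r = 0.95), Vamp8 (0.90) and Ecrg4 (0.89). For Cox6a2 the closest were Medag (0.94), Car4 (0.93) and Vav3 (0.92). Cox6a2 correlated with the thalamic neuron markers Ntng1 (0.85), Prkcd (0.83), Tcf7l2 (0.61) and Slc17a6 (0.57), and with Calb2 at 0.14. Within groups Prkcd and Cox6a2 had r between 0.70 in XX males and 0.90 in XX females. All 7 projection neuron markers were negative with Cox6a2, with Pde10a at -0.77. They were negative with Cox8b and with Cox7a1 as well, with Pde10a at -0.56 and -0.84. The choroid plexus sum had medians of 24369 in XY males, 5784 in XXY males, 22786 in XX males and 6697 in XX females, with ranges that overlapped. The thalamic sum had medians of 8718, 5658, 6354 and 5531 in the same order. The part of neighbouring tissue in the group differences of Cox8b and Cox6a2 was not tested.

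Cox7a1 followed markers of both tissues in part. Of the choroid plexus markers, Kcne2 had 0.55 with it, Otx2 0.51, Ttr 0.42, Kl 0.15 and Clic6 -0.36. Of the thalamic markers, Slc17a6 had 0.51 with Cox7a1, Ntng1 0.49, Calb2 0.49, Prkcd 0.44 and Tcf7l2 0.18. Its residuals had r = 0.90 with the mean of the other genes and -0.92 with Bcl11b. Its medians were 9.02 in XY males, 8.68 in XXY males, 8.73 in XX males and 8.66 in XX females.

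Atp5b, the most opposite gene, had lowest, median and highest values of 14.84, 14.92 and 15.07 in XY males, 14.61, 14.96 and 15.00 in XXY males, 14.86, 15.00 and 15.07 in XX males, and 14.78, 14.88 and 14.92 in XX females. The values lay within 0.46 of one another and close to the highest value on any array, 15.13. The lowest, in XXY male 5, came from the animal with the second highest mean of the 78 genes.

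Promoter letters did not divide the genes by pattern cleanly. Of the 30 genes with r over 0.8 and a window, 11 held the GABPA motif, 8 the NRF1 motif and 2 the YY1 motif. Of the 36 genes at or below 0.8 these counts were 5, 10 and 8. Cox7b, with the highest correlation, held none of the 4 motifs, and Atp5b, with the lowest, held the YY1 letters. These are counts without a test.

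Where a gene had several probes, they were compared. Of 16 probes not chosen, from 13 genes, 5 had residuals that correlated with the chosen probe at over 0.8, including Sdhb (0.94) and Ndufa8 (0.92). A dim Ndufv3 probe had 0.09 and a dim Ndufa5 probe 0.40 with the brighter probe of the same gene. Fitted differences also depended on the probe. For XX males minus XX females the chosen Ndufs4 probe gave -0.26 and the others -0.56, -0.69 and -0.83. Ndufa5 gave -0.08 and -0.75, and Atp5j gave 0.04 and -0.24. The mean of all probes of a gene left the count of calls at 0 in the 6 comparisons.

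The remaining genes of the pathway gave no calls between groups either. None of 8 other subunits and carriers, 24 assembly factors, 15 citric acid cycle genes or 11 biogenesis regulators was called in any of the 6 comparisons. For XX against XY males the assembly factors had a median difference of -0.16 with 2 of 24 higher, and the citric acid cycle genes had a median of 0.02 with 8 of 15 higher. For XXY against XY males these medians were 0.01 and 0.02.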

How the data were processed

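Per the file headers, the authors deposited each probe's signal intensity (linear scale) and its detection p-value. Bead numbers and bead standard errors, in other units, accompany them. The intensities were not normalized between arrays. A second deposited table holds log2 values from the authors, with limma named in the submitters' processing notes. How it was centred is not given in the sources used here, and its column medians ran from 8.09 to 8.12. The XX male columns of this table correlated at most at 0.0729 (Spearman) with their own arrays, so it served only as an alternative without XX males. The unused per-sample columns numbered 0.

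Intensities were background-corrected and quantile-normalized with neqc (limma 3.58.1, R 4.3.3, offset 16), using detection p-values in place of control probes. Probes detected at p under 0.01 on at least 8 of 37 arrays were kept, 12339 of 25697, giving 9455 features. The platform annotation names 11458 probes, of which 11454 matched RefSeq. limma's lmFit and eBayes fitted group, labelled batch and the share of letter b arrays (0, 0.5 or 1), with Benjamini-Hochberg adjustment over all features. Animals with a code of both letters held merged arrays, as bead numbers midway between integers in 10 columns show, and counted once. The labels call the animals biological replicates. Array values have no count depth, and the number of arrays limits precision. The offset shrinks differences of dim probes. The fit was tested on simulated data.

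Members and gene lists were chosen with earlier results of these data known. Genes named with values were the catalytic and structural subunits listed, tissue isoforms, X-linked genes, the 3 highest and lowest differences per comparison, and the 3 genes most and least like the others. Genes outside this rule, among them Ndufb5, Ndufaf3, Ndufaf7 and Cox7a2l, were picked after their values were seen. Alternatives covered covariates, array weights, offset, normalization, detection filter, probe choice, batches, letters, single arrays and the authors' table. Of single animals, XXY male 5 and XX female 7 were left out in turn, and no others.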

Additional observations from a re-analysis of the deposited data

Results flagged for a closer look

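Within groups of 8 or 9 animals, the highest or lowest value of each named gene was compared with its neighbour by Dixon's ratio. Of 132 groups of values tested 10 exceeded the limit, where chance gives about 1 in 20. XXY male 5 accounted for 4. Its Atp5b value was 14.609, below the next lowest XXY male at 14.924, its Cox8a value was 14.046 and its Ndufa13 value 14.011, both lowest of the group, and its Ndufb4 value of 9.7835 was the highest, with the next at 7.9227. XX female 7 had the highest Ndufb4 value of the females, 9.7414, and the highest Cox6b1 value, 14.903. XXY male 5 and XX female 7 are also the animals with the highest mean of the 78 genes.

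Single genes stood apart in 4 other animals. Cox6a1 was 14.526 in XXY male 1, against 14.402 in the next animal. Cox5a was 13.153 in XX male 2, below the next at 13.414. Atp5g1 was 13.037 in XX female 9, below the next at 13.386. Atp5g3 was 14.657 in XX male 7, where the other XX males all had 14.609, since quantile normalization gives probes of equal rank the same value.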

How the results depend on the processing

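The 6 group comparisons gave 0 genes called under most alternatives, and the exceptions all involved XX males. Without the letter term 1 gene was called for XX against XY males (1.42% of all features) and 1 for XXY against XX males (1.75%). In that setting 16 were called for XX males against XX females (26.9%). With array weights 25 were called for XX against XY males (26.2% of all features) and 19 for XX males against XX females (20.8%). With only XX males and XX females in the fit 16 were called (26.2%). Letter and group coincide in those animals and cannot be told apart there. For letter b against letter a, 4 genes were called in the model (13.2% of all features). The count was 16 without the batch term (32.8%), 2 with the replicate block (2.36%) and 22 with array weights (35.7%). It was 7 with median centring (42%) and 7 without XXY male replicate 5 (21.7%). It was 0 in labelled batch 1 alone (0.159%), in labelled batch 2 alone (0%) and in the authors' log2 table without XX males (0%). Ndufa6 reversed for the letter in labelled batch 2 alone (-0.059). The median difference of the 78 genes for XX males minus XX females was 0.11 with the replicate block, 0.15 in labelled batch 1 alone and -0.46 in labelled batch 2 alone. In labelled batch 1 alone, where only XX females carried letter b, it was -0.29 for XX females minus XY males. There it was 0.14 for XXY males minus XX females. Median centring raised the median pairwise correlation to 0.77. It also moved the median of all features for letter b minus letter a to 0.49. The cause was not tested. With the replicate number as a block, the median was -0.13 for XX females minus XY males, and no group comparison gained a call. Same-numbered animals did not all deviate together (lowest correlation -0.59 for XX males and XX females), so the numbers were not taken as pairs. Correlations over 0.1 were found for 6 of 8 pairs of XXY and XY males (median 0.16, highest 0.69). They were also found for 6 of 8 pairs of XXY and XX males (median 0.25, highest 0.67). Each of the other comparisons had 3 or 4 such pairs. Of 3956 recomputed differences of named genes 583 changed sign and 42 passed the threshold. Without XX female replicate 7 the median for XX females minus XY males was 0.02, and for XXY males minus XX females it was -0.04.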

Other observations

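The blood marker Hbb-bt, a beta globin gene, had r = 0.82 with the mean of the 78 genes across 37 animals, and Hba-a1, an alpha globin gene, had 0.29. The microglial marker Aif1 had 0.83, while Cx3cr1, a receptor of the same cells, had -0.67. Markers of 1 cell type thus lay on opposite sides of the axis in microglia as in astrocytes. All 4 endothelial markers were negative, from Flt1 at -0.84 to Ly6c1 at -0.27.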
